A study of Homo sapiens with 4 samples.

Results

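The genes described here are 36 mesenchymal genes, that is, genes that carcinoma cells typically gain in an epithelial-mesenchymal transition (EMT) or that mark stromal cells. They were compared between 320-IWR, a subline of the human colon cancer line COLO-320DM obtained by keeping those cells under the tankyrase inhibitor IWR-1 until they were resistant, and COLO-320DM itself, the parental line, which had not been through that selection. Tankyrase inhibitors act on Wnt/β-catenin signaling by stabilizing the scaffold protein axin. RNA was taken from dishes of nearly confluent cells and hybridised to GeneChip Human Genome U133 Plus 2.0 arrays, 2 arrays of 320-IWR and 2 arrays of COLO-320DM. 320-IWR is a single selected population and not a clone, so a difference from COLO-320DM describes that 1 selection, and the sources used here do not say whether IWR-1 was in the medium when the RNA was taken. Members were the probe sets (groups of short probes read as 1 value) annotated to exactly 1 of the 36 gene symbols. They numbered 114 of 54613 probe sets, and every one of the 36 genes had at least 1.

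In an EMT, epithelial cells loosen their contacts, lose E-cadherin and epithelial keratins, and gain vimentin, a contractile cytoskeleton and a fibronectin-rich matrix. The transcription factors SNAI1, SNAI2, ZEB1, ZEB2, TWIST1 and TWIST2 drive the process, largely by repressing epithelial genes through E-box sequences, and TGF-β is its best known inducer. In the colon, many of the same matrix and contractile genes are made mainly by fibroblasts and smooth muscle cells, so in tumour tissue they often report stroma, which a pure culture should not hold.

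Values were RMA-normalized intensities on a linear scale. A difference is given as a log2 fold change, 320-IWR over COLO-320DM, with its standard error (SE) or 95% interval from limma, and an adjusted p is the Benjamini-Hochberg value over all 54613 probe sets. Calls needed an adjusted p under 0.05 together with a difference of 2-fold or more. Arrays of the same line correlated at r = 0.991 (320-IWR) and 0.99 (COLO-320DM), and arrays of different lines with the same replicate number at 0.987 and 0.988. Nothing in the labels says that replicates came from separate cultures, and the tests therefore see no more than array-to-array spread, perhaps of a technical kind. Fewer cells of a type and less RNA per cell cannot be told apart in such bulk samples. A level on 1 probe set is not set against that on another, and a summed intensity only follows its brightest probe sets.

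None of the mesenchymal genes was called in either direction. Across all probe sets 0.37% were called, against 0 of 114 for the mesenchymal genes. With each gene represented by its probe set of highest mean level, 0.592% of all 19775 genes were called and 0 of the 36. The lowest adjusted p among the 114 probe sets was 0.0837. At an unadjusted p under 0.05, 14 of the 114 (12.3%) were lower in 320-IWR, where 5.11% of all probe sets were, and 1 (0.877%) was higher, where 4.6% of all were. The 14 probe sets belong to 9 genes, FN1 (4 probe sets), ZEB2 (3), and TNC, S100A4, FSTL1, VIM, TPM1, TPM2 and CALD1 (1 each), so they are not independent of each other.

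The share with both 320-IWR arrays below both COLO-320DM arrays was 28.9% (33 of 114), against 16.1% of all probe sets. The opposite arrangement was found for 17.5% (20 of 114), against 19.5% of all probe sets. A difference of at least 2-fold was seen for 6 probe sets (5.26%), all lower in 320-IWR, where 1.36% of all probe sets were lower by that much. These 6 belong to TNC, S100A4, FSTL1 and FN1. Most other members lay near the median. The log2 fold changes of the 114 probe sets had a median of -0.003, with 55 above and 59 below zero, and the median over all probe sets was 0.015. Over the 36 genes the median was -0.049, against 0.017 over all genes. Only 29 of the 114 probe sets, in 15 of the 36 genes, had a mean log2 level of at least 6 in either line. For the 21 other genes a difference could be missed at such low intensity. ACTA2 and CALD1 are among these 21, and each had 1 probe set at an unadjusted p under 0.05 by limma.

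**Figure D1:**
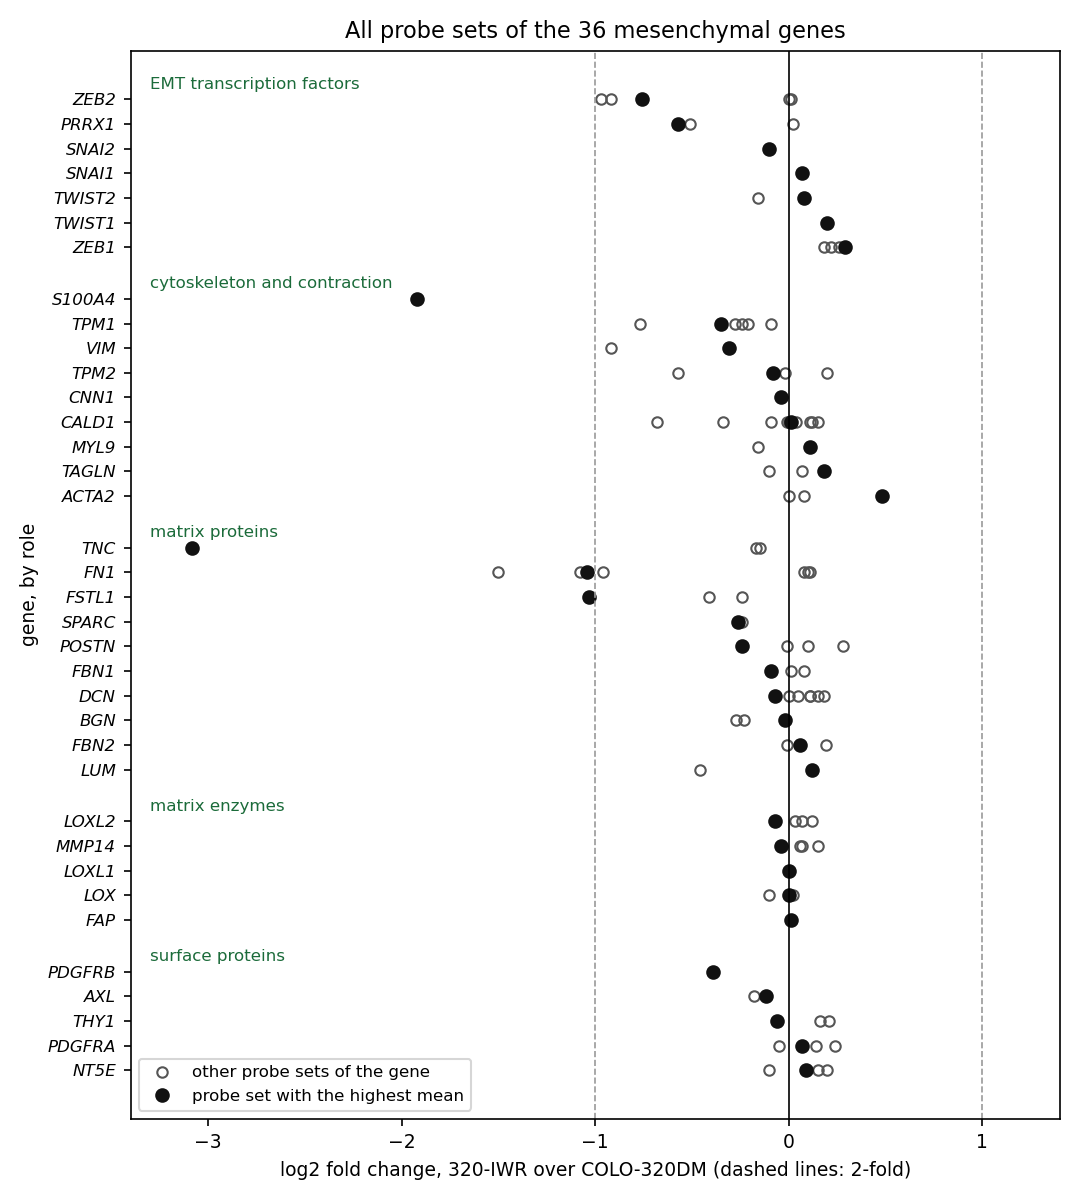
Log2 fold change (320-IWR over COLO-320DM, horizontal axis) of every probe set of the 36 genes, grouped by role. Filled points are the probe set of each gene with the highest mean, open points the gene's other probe sets, and dashed lines mark 2-fold. Only TNC, S100A4, FN1 and FSTL1 have a point beyond the lower dashed line, and no gene has one beyond the upper line.

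Of the 37 probe sets of the matrix proteins, 6 were lower at an unadjusted p under 0.05 (16.2%, against 5.11% of all), 4 of FN1 and 1 each of TNC and FSTL1, and 0 were higher. Without overlap between the lines, 14 were lower (37.8%, against 16.1% of all) and 7 higher (18.9%, against 19.5% of all). Tenascin-C (TNC, gene ID 3371, chr9:115019575-115118157 on GRCh38.p14) is a matrix glycoprotein of embryonic tissue, wounds and tumour stroma. On its brightest probe set, 201645_at, TNC read 11.3 and 12.3 on the 320-IWR arrays, against 58.9 and 169 on the COLO-320DM arrays. Both 320-IWR arrays were close to each other and far below both COLO-320DM arrays, which differed widely between themselves. The log2 fold change was -3.08 (SE 0.51, 95% interval -4.40 to -1.76), an 8.45-fold lower reading in 320-IWR, with an adjusted p of 0.137 by limma. The 320-IWR readings are as low as those of dim probe sets and no detection calls were used, so the size of this fold is uncertain. Over the 4 fits that each leave out 1 array, the log2 fold change lay between -3.84 (without COLO-320DM replicate 1) and -2.32 (without COLO-320DM replicate 2). The other TNC probe sets, both dim, gave -0.15 and -0.17.

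Fibronectin (FN1, gene ID 2335, chr2:215360865-215436068) is the matrix glycoprotein most often used as a marker of EMT. The brightest of its 7 probe sets, 210495_x_at, read 45.3 and 69.4 in 320-IWR, against 128 and 103 in COLO-320DM, a log2 fold change of -1.04 (95% interval -1.69 to -0.38, adjusted p = 0.264 by limma). The largest difference was on 211719_x_at, with 50.2 and 38.9 in 320-IWR against 145 and 107 in COLO-320DM, which is 44.6 ± 8.02 against 126 ± 26.7 (SD, n = 2 each). There the log2 fold change was -1.50 (SE 0.22, 95% interval -2.06 to -0.93), 2.82-fold lower, with an adjusted p of 0.111 by limma. The lines did not overlap on either probe set.

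A further pair of FN1 probe sets, 212464_s_at and 216442_x_at, gave -1.08 and -0.96, also without overlap. The remaining FN1 probe sets gave 0.08, 0.10 and 0.11. None of these reached a mean log2 level of 6 in either line, so a difference would be hard to see there. The gene's probe sets thus fell into a lower set of 4 and a set of 3 that hardly differed. The lower 4 reached that level only in the parental line, so which probe sets count as dim depends on the difference itself. In the resistant subline their means were 44.6 to 57.4. The mean of 214701_s_at, from the set of 3, lay within that range there, at 51.4, and was 47.8 in the parental line. Why the probe sets disagreed was not tested. All 4 of the lower ones, and 214701_s_at (0.11) among the other three, carry the suffix _x_at or _s_at, which the array maker gives to probes that can match more than 1 transcript.

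Follistatin-like 1 (FSTL1, gene ID 11167, chr3:120392293-120450992), a secreted glycoprotein made by mesenchymal cells, was bright in both lines. It read 1373 and 1172 in 320-IWR, against 2831 and 2370 in COLO-320DM, or 1272 ± 142 against 2600 ± 326 (SD, n = 2 each). Every 320-IWR array was below every COLO-320DM array, and the same held for the other FSTL1 probe sets. The log2 fold change of the brightest was -1.03 (SE 0.16, 95% interval -1.44 to -0.62), 2.04-fold lower, with an adjusted p of 0.123 by limma, and the others gave -0.41 and -0.24.

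The other 7 matrix proteins differed little on their brightest probe sets. The log2 fold changes were -0.26 for SPARC, a collagen-binding glycoprotein, and -0.24 for POSTN (periostin), both dim. They were -0.09 and 0.06 for the fibrillins FBN1 and FBN2, the subunits of elastic microfibrils. For the small leucine-rich proteoglycans DCN, BGN and LUM, which bind collagen fibrils, they were -0.07, -0.02 and 0.12. The summed intensity of the brightest probe sets of the 10 matrix proteins was 1599 and 1430 in 320-IWR and 3193 and 2826 in COLO-320DM, a difference carried mainly by FSTL1.

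**Figure D2:**
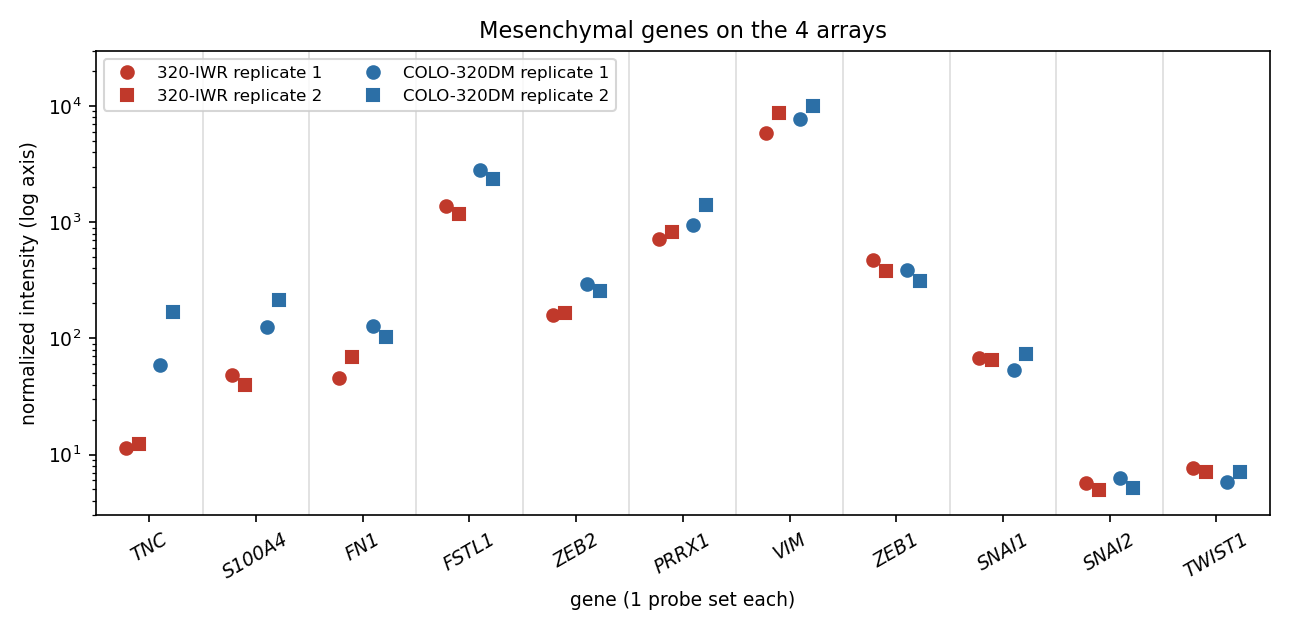
Normalized intensity (log axis) of the brightest probe set of 11 mesenchymal genes on each array, with 320-IWR in red, COLO-320DM in blue, circles for replicate 1 and squares for replicate 2. TNC, S100A4, FN1, FSTL1, ZEB2 and PRRX1 have both red points below both blue ones, whereas the points of VIM, ZEB1, SNAI1 and SNAI2 overlap between the lines, and both TWIST1 points of 320-IWR lie just above those of COLO-320DM.

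Among the 33 probe sets of the cytoskeletal and contractile genes, 5 were lower at an unadjusted p under 0.05 (15.2%, against 5.11% of all). By the same threshold 1 was higher (3.03%, against 4.6% of all). The calcium-binding protein S100A4 (gene ID 6275, chr1:153543621-153545806), also known as fibroblast-specific protein, binds non-muscle myosin and is linked to cell motility and metastasis. Its single probe set, 203186_s_at, read 48.0 and 39.6 in 320-IWR, against 126 and 215 in COLO-320DM, or 43.8 ± 5.93 against 170 ± 62.8 (SD, n = 2 each). All 320-IWR values were below all COLO-320DM values. The log2 fold change was -1.92 (SE 0.29, 95% interval -2.67 to -1.17), 3.77-fold lower, with an adjusted p of 0.119 by limma.

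Vimentin (VIM, gene ID 7431, chr10:17228241-17237593), the intermediate filament protein that defines mesenchymal cells, was among the bright genes of both lines. Its main probe set, 201426_s_at, read 5880 and 8737 in 320-IWR, against 7778 and 10104 in COLO-320DM. The lines overlapped, and the log2 fold change of -0.31 had a 95% interval of -0.96 to 0.34 (adjusted p = 0.863 by limma). A dim second probe set, 1555938_x_at, read 30.8 and 26.6 in 320-IWR against 54.0 and 54.3 in COLO-320DM, which is -0.92 (95% interval -1.26 to -0.58, adjusted p = 0.109). The VIM probe sets thus gave unequal differences of the same sign, and the bright one bounds a decrease or an increase only loosely.

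TPM1 and TPM2 encode tropomyosins, which wind along actin filaments. All 6 TPM1 probe sets were negative, between -0.77 and -0.09, and the one at -0.77 read 31.9 and 39.6 in 320-IWR against 64.3 and 56.9 in COLO-320DM (adjusted p = 0.211 by limma). The brightest TPM1 probe set gave -0.35 with overlapping lines. For TPM2, 1 probe set read 73.0 and 74.1 in 320-IWR against 102 and 117 in COLO-320DM, a log2 fold change of -0.57 (adjusted p = 0.244), and the brightest gave -0.08. Caldesmon (CALD1), an actin-binding regulator of contraction, had 11 probe sets between -0.68 and 0.15, with 0.01 on the brightest. None of the CALD1 probe sets reached a mean log2 level of 6 in either line.

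Smooth muscle actin (ACTA2) was the sole member with a probe set higher in 320-IWR at an unadjusted p under 0.05. It read 39.3 and 39.9 in 320-IWR, against 29.0 and 27.8 in COLO-320DM, a log2 fold change of 0.48 (95% interval 0.18 to 0.78) with an adjusted p of 0.264 by limma. The arrays did not overlap, but the level was low in both lines and the other ACTA2 probe sets lay within 0.08 of zero. The remaining smooth muscle genes had small differences on their brightest probe sets, 0.18 for TAGLN (transgelin), -0.04 for CNN1 (calponin) and 0.11 for MYL9, a regulatory light chain of myosin.

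The values of the 7 transcription factors lay on both sides of zero. Of their 17 probe sets, 3 were lower at an unadjusted p under 0.05 (17.6%, against 5.11% of all), each of them of ZEB2. By the same threshold 0 were higher, against 4.6% of all. ZEB2 (gene ID 9839, chr2:144384081-144520119) is a zinc finger repressor of E-cadherin. Its brightest probe set, 203603_s_at, read 159 and 164 in 320-IWR, against 295 and 256 in COLO-320DM, a log2 fold change of -0.76 (SE 0.13, 95% interval -1.11 to -0.42, adjusted p = 0.154 by limma). The probe set 235593_at, itself dim, had the lowest adjusted p of all members, 0.0837 by limma. It read 31.3 and 30.9 in 320-IWR against 59.4 and 58.0 in COLO-320DM, 1.89-fold lower. All 3 ZEB2 probe sets with a difference had non-overlapping lines, the third of them at -0.97 with an adjusted p of 0.358, and the other two, both dim, gave 0.00 and 0.01.

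Its paralog ZEB1 (gene ID 6935, chr10:31318417-31529804) lay on the other side of zero. The brightest ZEB1 probe set read 471 and 383 in 320-IWR, against 391 and 311 in COLO-320DM, with overlapping lines. Its log2 fold change was 0.29 (95% interval -0.19 to 0.76, adjusted p = 0.786 by limma), and all 4 ZEB1 probe sets gave between 0.18 and 0.29. The difference between the ZEB1 and ZEB2 changes was not tested. The homeobox factor PRRX1 read 724 and 830 in 320-IWR, against 942 and 1398 in COLO-320DM, a log2 fold change of -0.57 (95% interval -1.15 to 0.02, adjusted p = 0.539).

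The SNAIL and TWIST factors showed no difference that could be told from the spread between arrays. SNAI1, the zinc finger factor SNAIL, read 67.2 and 65.0 in 320-IWR, against 53.9 and 73.4 in COLO-320DM (log2 fold change 0.07, 95% interval -0.41 to 0.55). SNAI2, or SLUG, read 5.65 and 4.92 in 320-IWR, against 6.24 and 5.15 in COLO-320DM (-0.10, 95% interval -0.52 to 0.31). The basic helix-loop-helix factor TWIST1 read 7.65 and 7.09 in 320-IWR, against 5.83 and 7.02 in COLO-320DM (0.20, 95% interval -0.18 to 0.59), and TWIST2 gave 0.08. SNAI2 and TWIST1 lay near the lowest intensity on the arrays, 3.515, so a low but changing level would not have been detectable there. For SNAI1 the interval leaves room for a difference of either sign.

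Of the 5 role groups, the enzymes that build or cut the matrix showed the smallest differences. The lysyl oxidases LOX, LOXL1 and LOXL2, which cross-link collagen and elastin, gave 0.00, 0.00 and -0.07 on their brightest probe sets. The membrane-bound collagenase MMP14 gave -0.04, and the fibroblast activation protease FAP gave 0.01. All 13 probe sets of these 5 genes lay between -0.10 and 0.15. Of them 0 had an unadjusted p under 0.05, at which 5.11% of all probe sets were lower and 4.6% higher. The widest 95% interval among the brightest probe sets, that of MMP14, ran from -0.44 to 0.37.

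Surface proteins of mesenchymal cells gave a like result, with 0 of 14 probe sets at an unadjusted p under 0.05 and a range of -0.39 to 0.24. Across all probe sets, 5.11% were lower and 4.6% higher at that threshold. PDGFRB, a receptor for platelet-derived growth factor on pericytes and fibroblasts, read 73.7 and 47.4 in 320-IWR, against 81.9 and 73.7 in COLO-320DM, a log2 fold change of -0.39 (95% interval -1.02 to 0.23). The related receptor PDGFRA gave 0.07. The receptor tyrosine kinase AXL gave -0.12, the glycoprotein THY1 (CD90) -0.06 and the ecto-nucleotidase NT5E (CD73) 0.09 on their brightest probe sets.

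The epithelial side of the transition was read from a list of 26 adhesion, keratin and epithelial transcription factor genes, 25 of which had a probe set. Of their 49 probe sets, 1 was called higher and 2 were called lower (6.12% in all, against 0.37% of all probe sets). At an unadjusted p under 0.05, 2 were higher (4.08%, against 4.6% of all) and 5 lower (10.2%, against 5.11% of all). By brightest probe set, 17 of the 25 genes lay above zero and 8 below, with a median log2 fold change of 0.073. KRT8 and KRT18 encode the paired keratins of simple epithelia. KRT8 read 113 and 112 in 320-IWR, against 500 and 580 in COLO-320DM, and fell by 2.26 on the log2 scale (95% interval -2.61 to -1.91, adjusted p = 0.0155 by limma). KRT18 read 390 and 380 in 320-IWR, against 1323 and 1128 in COLO-320DM, a log2 fold change of -1.67 (adjusted p = 0.0322). Both values are uncertain in that the probe sets end in _x_at and these keratins have near-identical pseudogene copies. 

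KRT20, a keratin of differentiated intestinal cells, was higher, with 199 and 160 in 320-IWR against 49.6 and 54.6 in COLO-320DM, a log2 fold change of 1.78 (adjusted p = 0.0412 by limma). With any 1 array left out the log2 fold changes stayed between -2.37 and -2.15 for KRT8, -1.78 and -1.55 for KRT18 and 1.62 and 1.94 for KRT20. None of the keratins was called in those smaller fits, with adjusted p from 0.0656 to 0.206, 0.105 to 0.296 and 0.148 to 0.284 in the same order, and without either 320-IWR array 0 probe sets of the whole series were called. EPCAM, an epithelial adhesion molecule, read 13.5 and 18.1 in 320-IWR, against 23.5 and 35.1 in COLO-320DM (-0.88, adjusted p = 0.356). SPINT2, an epithelial protease inhibitor, read 53.9 and 84.5 in 320-IWR, against 41.4 and 40.9 in COLO-320DM (0.71, adjusted p = 0.433). PATJ, from the same list, went the other way and gave 2 of the 5 lower probe sets. Its brightest read 69.0 and 60.0 in 320-IWR, against 128 and 116 in COLO-320DM (-0.92, adjusted p = 0.12 by limma).

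The cadherins, whose exchange is a hallmark of EMT, were dim in both lines. E-cadherin (CDH1) read 18.3 and 18.8 in 320-IWR, against 16.2 and 18.3 in COLO-320DM, with a log2 fold change of 0.11 (95% interval -0.22 to 0.44). N-cadherin (CDH2) read 28.7 and 25.3 in 320-IWR, against 25.2 and 25.8 in COLO-320DM, with 0.08 (95% interval -0.25 to 0.42). At such low readings the intervals describe the probe sets, and a change in a weakly expressed cadherin may not have been detectable.

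**Figure D3:**
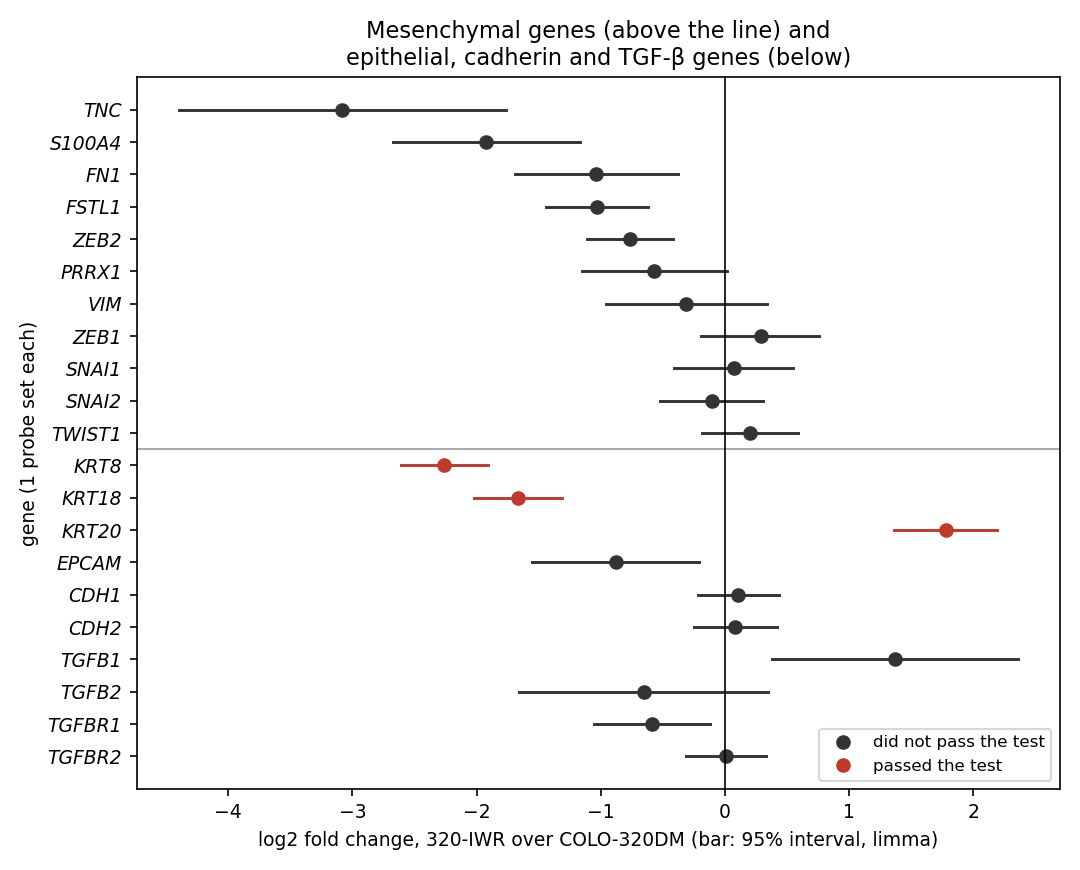
Log2 fold change (320-IWR over COLO-320DM, points) with its 95% interval from limma (bars) for 11 mesenchymal genes above the horizontal line and 10 epithelial, cadherin and TGF-β genes below it, each by its brightest probe set. Red marks the genes that passed the test, KRT8 and KRT18 (lower) and KRT20 (higher), and none of the mesenchymal genes did, although the intervals of TNC, S100A4, FN1, FSTL1 and ZEB2 lie below zero.

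Genes linked to TGF-β signaling were taken as a list of 25 genes, 23 of them measured. It holds ligands and receptors but also inhibitors of the pathway such as SMAD7, SKI and SKIL. The listed genes are therefore not all inducers of EMT. Of their 67 probe sets 0 were called, and 2 were higher (2.99%, against 4.6% of all) and 7 lower (10.4%, against 5.11% of all) at an unadjusted p under 0.05. The ligand TGFB1 read 138 and 245 in 320-IWR, against 54.7 and 92.7 in COLO-320DM, a log2 fold change of 1.37 (SE 0.38, 95% interval 0.38 to 2.36, adjusted p = 0.332 by limma), and its other probe set gave 0.33. In both lines replicate 2 read above replicate 1. The ligand TGFB2 read 224 and 167 in 320-IWR, against 437 and 210 in COLO-320DM (-0.65, 95% interval -1.66 to 0.35).

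Of the receptors, TGFBR1 read 550 and 726 in 320-IWR, against 904 and 994 in COLO-320DM (-0.59, 95% interval -1.05 to -0.12, adjusted p = 0.378 by limma). TGFBR2, which binds the ligand first, read 17.7 and 16.1 in 320-IWR, against 16.5 and 17.1 in COLO-320DM (0.01, 95% interval -0.31 to 0.33). The ligand TGFB1 and the receptor TGFBR1 thus lay on opposite sides of zero, each without overlap between the lines, and neither was called.

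Markers of cells other than carcinoma cells were measured beside these genes. The summed intensity of the 8 fibroblast markers was 664 and 1560 in 320-IWR and 685 and 1591 in COLO-320DM, and 0 of the 8 were called. Its split by replicate number, alike in both lines, came almost wholly from COL3A1, which read 278 and 1187 in 320-IWR and 292 and 1193 in COLO-320DM. The fibroblast list shares DCN, LUM, PDGFRB and FAP with the mesenchymal genes. The 5 endothelial markers summed to 172 and 150 in 320-IWR and 164 and 149 in COLO-320DM, and the 4 measured leukocyte markers of 6 listed to 303 and 249 in 320-IWR and 255 and 212 in COLO-320DM. The 9 colorectal epithelial markers summed to 3635 and 3654 in 320-IWR and 5486 and 5244 in COLO-320DM. KRT18, CDX2 and KRT8 carried the lower sum in 320-IWR, while by gene 4 of the 9 lay above zero and 5 below, with a median log2 fold change of -0.021. The intestinal transcription factor CDX2, a defining marker of the colon label, read 2723 and 2790 in 320-IWR and 3403 and 3263 in COLO-320DM, whereas EPCAM and CDH1 were dim in both lines.

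Promoter sequences are shown for the 4 genes with a difference of at least 2-fold. RefSeq windows on GRCh38.p14, running from 250 bases before to 50 bases after a gene's start, were matched for 26 of the 36 genes, and only the upstream 250 bases are printed, 5′ to 3′ on the strand of the gene, which is the minus strand in all 4. The windows lie at chr9:115118158-115118407 (TNC), chr1:153545807-153546056 (S100A4), chr2:215436069-215436318 (FN1) and chr3:120450993-120451242 (FSTL1). Capitals mark a match to 1 of the motifs named after them.
TNC: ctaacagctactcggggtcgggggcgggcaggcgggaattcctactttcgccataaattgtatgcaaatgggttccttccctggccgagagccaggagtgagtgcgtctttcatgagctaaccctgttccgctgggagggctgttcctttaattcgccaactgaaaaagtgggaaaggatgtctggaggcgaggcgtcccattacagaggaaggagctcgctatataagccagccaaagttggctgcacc
S100A4: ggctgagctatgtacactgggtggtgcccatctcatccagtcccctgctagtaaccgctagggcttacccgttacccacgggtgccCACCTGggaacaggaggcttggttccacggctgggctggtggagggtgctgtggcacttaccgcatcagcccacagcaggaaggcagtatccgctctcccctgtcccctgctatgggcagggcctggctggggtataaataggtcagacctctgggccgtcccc
FN1: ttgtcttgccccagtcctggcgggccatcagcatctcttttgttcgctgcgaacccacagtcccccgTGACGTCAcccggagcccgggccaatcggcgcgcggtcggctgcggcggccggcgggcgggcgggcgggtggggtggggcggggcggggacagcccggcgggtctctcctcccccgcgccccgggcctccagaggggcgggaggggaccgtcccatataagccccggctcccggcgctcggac
FSTL1: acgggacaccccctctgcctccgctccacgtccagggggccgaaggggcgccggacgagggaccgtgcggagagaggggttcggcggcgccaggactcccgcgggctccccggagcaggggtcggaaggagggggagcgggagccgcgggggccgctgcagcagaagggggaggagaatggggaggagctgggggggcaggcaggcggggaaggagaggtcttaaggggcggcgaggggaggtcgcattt

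The E-box bound by SNAIL and ZEB factors, CAGGTG or its reverse complement CACCTG, was found in 3 of the 26 windows (11.5%), those of AXL, S100A4 and ZEB1, and in 20.6% of all 27305 windows. In S100A4 its first base lies at -164 from the start. The cAMP response element, TGACGTCA on both strands, was found in 1 of the 26 (3.85%), FN1, with its first base at -183, and in 1.98% of all windows. The site of TCF/LEF factors, which carry the Wnt/β-catenin signal to DNA, was searched as CTTTGAT or ATCAAAG and found in 0 of the 26 windows and in 2.64% of all. The CArG box, bound by serum response factor at contractile genes, was found in 0 of the 26 windows and in 1.29% of all. A match describes the letters of the window only, and the absence of one says nothing of the factor.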

How the data were processed

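Gene expression of 2 arrays of 320-IWR and 2 of COLO-320DM cells was analysed, each array assigned to its line by its title. The deposited intensity values are RMA-normalized probe set intensities on a linear scale (range 3.515 to 22475), made by the authors, whose submitters' notes name RMA without a version and whose methods name GeneSpring GX. No detection calls were used, and with 2 arrays a line the number of arrays limits the precision.

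Of 54675 probe sets, 62 controls were left out. Intensities were floored at 1 and log2-transformed, and limma 3.58.1 (R 4.3.3) was fitted to 54613 probe sets with cell line as the only term. The adjusted p was computed over all of them (Benjamini-Hochberg). The methods name no test for the arrays. The platform annotation gave 1 gene symbol for 41091 probe sets, several for 1801 and none for 11721. Where a gene has several probe sets, the one with the highest mean log2 value is called its brightest. Positions and promoters were taken from RefSeq tables of GRCh38.p14. The fit was tested on simulated data.

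The 36 genes and the lists were chosen with earlier results of these data known. Each of the 36 genes is named with its brightest probe set. Values on every array are given for members with a probe set that was called or at least 2-fold apart without overlap, and for the defining genes VIM, FN1, ZEB1, ZEB2, SNAI1, SNAI2 and TWIST1. From the other lists, called genes, EPCAM, the cadherins, TGFB1, TGFB2, TGFBR1 and TGFBR2 are given. Values of PRRX1, ACTA2, TPM1, TPM2, PDGFRB, SPINT2, PATJ, COL3A1 and CDX2 were added after they were seen. Alternatives were a replicate block, leaving out each array, cyclic loess, equal medians, a filter on dim probe sets, a trended robust prior, other thresholds, leaving out _x_at and _s_at probe sets, a fold over arithmetic means and the mean of a gene's probe sets.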

Additional observations from a re-analysis of the deposited data

How the results depend on the processing

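The titles give both lines the replicate numbers 1 and 2, and the same-numbered arrays deviated from their line means together (r = 0.661 across probe sets), but nothing says that a number marks a shared batch or day. With the replicate block, 3 member probe sets were called lower (FN1 211719_x_at, adjusted p = 0.0281, FN1 212464_s_at, 0.0403, and FSTL1 208782_at, 0.0428) and 1 gene by its brightest probe set. At an unadjusted p under 0.05 the block gave 2 higher (1.75%, against 10.6% of all probe sets) and 22 lower (19.3%, against 9.9% of all), and TGFB1 was called higher (adjusted p = 0.0308). The block gave 576 calls among the 54613 probe sets of the whole series, against 202 without it. The 3 member calls were among 114 member probe sets.

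Keeping only probe sets whose mean log2 level reached 6 in either line left 29 member probe sets. At an unadjusted p under 0.05, 0 of these were higher (against 6.93% of all) and 10 lower (34.5%, against 7.79% of all). The median over the member genes was -0.35, against 0.011 over all genes. A gene can pass this filter through the line in which it is high, which limits how these shares can be read. Without _x_at and _s_at probe sets, 7 of the 62 left were lower at an unadjusted p under 0.05 (11.3%, against 4.83% of all). The median over the member genes was then 0.03, above zero, against 0.015 over all genes. Leaving out 1 array at a time, the median over the member genes ran from -0.085 to -0.019, and that over all genes from -0.004 to 0.04. Where a line kept 1 array, its spread was taken from the other line. Without either 320-IWR array, limma called 0 probe sets of the whole series, with 3756 and 3502 at an unadjusted p under 0.05.

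The log2 fold change of TGFBR2 was -0.01 with cyclic loess and ran from -0.06 to 0.08 with 1 array left out. With 1 array left out, that of CDH2 ran from -0.01 to 0.17, of SNAI1 from -0.15 to 0.29 and of SNAI2 from -0.24 to 0.03. KRT20 missed the threshold with the trended robust prior (adjusted p = 0.053). The causes of these shifts were not tested. Over the probe sets named, 198 values kept their direction and side of the threshold, 13 lost the call, 5 gained it and 6 changed sign.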

Other observations

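Other genes linked to EMT in carcinoma, read from a list of 17 genes, had 0 of 69 probe sets called. At an unadjusted p under 0.05, 2 were higher (2.9%, against 4.6% of all probe sets) and 18 lower (26.1%, against 5.11% of all). Of the 18, CD44 gave 6 and TCF4 gave 5, and both higher ones were of TCF3. The genes given here were chosen after their values were seen. The hyaluronan receptor CD44, a Wnt target in the intestine, had 13 probe sets. On 212063_at it read 7.23 and 9.23 in 320-IWR, against 38.4 and 76.5 in COLO-320DM, a log2 fold change of -2.73 (adjusted p = 0.0919 by limma), and on its brightest probe set it gave -0.55 (adjusted p = 0.449). The crypt transcription factor SOX9 read 20.7 and 15.1 in 320-IWR, against 146 and 65.6 in COLO-320DM (-2.47, adjusted p = 0.146), and its other probe set gave -2.54. The Wnt ligand WNT5B read 34.9 and 24.9 in 320-IWR, against 111 and 112 in COLO-320DM (-1.92, adjusted p = 0.0556), on its brightest probe set. Its other probe sets, both dim, gave -0.25 and -0.00. LTBP1, from the list of genes linked to TGF-β signaling, holds latent TGF-β in the matrix. It read 203 and 241 in 320-IWR, against 520 and 602 in COLO-320DM (-1.34, adjusted p = 0.0734 by limma). The E-protein TCF3 read 1086 and 1239 in 320-IWR against 604 and 772 in COLO-320DM on its brightest probe set (0.76, adjusted p = 0.236), and did not pass the test. In CD44 (212063_at), SOX9, WNT5B and LTBP1 both 320-IWR arrays lay below both COLO-320DM arrays on the probe sets given, and none was called.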
